A study of Mus musculus with 12 samples.

Results

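The 10 genes of the NRF2 oxidative stress response followed here were measured in TC2Ras tumors with and without inorganic arsenic (iAs). They were taken by symbol from the deposited count table, where each of the 10 symbols matched exactly 1 of the 55401 Ensembl rows, and all 10 passed the filter on low counts that left 20818 genes for testing. RNA was sequenced from 12 tumors, collected 21 days after 125000 TC2Ras cells, a mouse prostate cancer line, were implanted under the skin of the flanks. Control tumors grew from TC2Ras cells alone and ASC tumors from TC2Ras cells mixed with 1% adipose-derived stromal cells, both in mice whose drinking water held 0 ppb iAs, while A300 and ASC300 tumors were their counterparts in mice whose water held 300 ppb. Each group held 3 tumors, each library joined the left and right flank tumors of 1 mouse, and all mice had first received low-arsenic chow and purified water. The ASC were primary cells from male C57BL/6 mice carrying a GFP transgene, the strain and age of the host mice are not given in the sources used here, and TC2Ras is a single line.

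NRF2, encoded by Nfe2l2, is the transcription factor that turns on antioxidant and detoxifying genes. In unstressed cells KEAP1 holds NRF2 and hands it to a ubiquitin ligase built on CUL3, so that it is degraded. Oxidants, electrophiles and trivalent arsenic modify KEAP1 or impair this hand-over, NRF2 then enters the nucleus, pairs with a small MAF protein and binds antioxidant response elements near its targets. The pathway is controlled largely through the NRF2 protein, so the transcript of Nfe2l2 does not measure its activity, and the target genes are the usual readout in RNA. Among the targets measured here, Slc7a11 encodes the cystine importer, Gclc and Gclm the 2 subunits of the rate-limiting enzyme of glutathione synthesis, and Gsr the reductase that regenerates glutathione. Txnrd1 and Srxn1 serve thioredoxin and the peroxiredoxins, Hmox1 degrades heme, and Nqo1 reduces quinones.

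The core of the antioxidant response element was searched for as TGACNNNGC on both strands of the RefSeq promoter table, which covers 250 bases before to 50 bases after a gene's start (assembly GRCm38.p6). The table held 9 promoters of 7 of the genes, and those of Nfe2l2, Gclm, Txnrd1 and Srxn1 had a match (1 of the 3 starts listed for Txnrd1), against 12.4% of all 32851 promoters. The matches of Gclm and Txnrd1 are shown, because they lie outside annotated exons, whereas those of Nfe2l2 and Srxn1 overlap one. Capitals mark the match, which begins 134 bases before the start of Gclm and 92 bases before a start of Txnrd1. The windows shown hold the match and 10 bases on either side, at chr3:122245413-122245441 for Gclm and chr10:82859104-82859132 for Txnrd1. Both windows are read on the minus strand, opposite to the genes. A match is a stretch of letters and was not measured for binding.
Gclm: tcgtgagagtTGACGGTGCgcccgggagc
Txnrd1: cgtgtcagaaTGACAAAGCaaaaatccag

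Libraries held 39157647 (ASC replicate 2) to 55168642 counts (A300 replicate 3), and the 10 genes held between 135 counts (Nqo1) and 10359 counts (Txnrd1) in a tumor. Levels are given as CPM, a gene's count scaled to the size of its library after TMM normalization. The sample labels name stromal cells as the cell type, whereas the study describes whole tumors. Summed over 8 fibroblast markers the tumors held 5340 to 10090 CPM, and over 8 epithelial markers 27.3 to 363 CPM, most of it Krt8, with Epcam, a defining epithelial marker, at 0.139 to 1.34 CPM. In tumor RNA, fewer cells of a type and less RNA per cell cannot be told apart. Control replicate 1 stood apart in the lymphocyte lists, with 92.0 CPM over 8 T cell markers against 16.3 and 18.8 CPM in the other Control tumors, and 264 CPM over 8 B cell and plasma cell markers against 96.2 and 96.9 CPM. The same tumor held the 363 CPM over epithelial markers, against 67.2 and 94.9 CPM in the other Control tumors. Over 12 neuronal and synaptic markers it held 33.7 CPM against 54.3 and 56.0 CPM. Without Control replicate 1 the log2 fold change in A300 against Control was -0.38 for Nfe2l2 and -0.46 for Gclc, and without A300 replicate 2, the lowest tumor in both genes, -0.25 and -0.29.

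None of the 10 genes was called in any comparison, a call being a Benjamini-Hochberg adjusted p-value under 0.05 over all genes tested in edgeR's quasi-likelihood test together with a change of at least 1.5-fold. In A300 against Control the background was 1.06% of genes called (220 of 20818), and 2 of the 10 genes had an unadjusted p-value under 0.05, beside 24.1% of all genes (2324 higher and 2701 lower). For ASC300 against ASC it was 0%, with 0 of the 10 at an unadjusted p-value under 0.05, where 307 of all genes were higher and 362 lower. DESeq2 called 0 of the 10 genes in either comparison. The median log2 fold change of the 10 genes was -0.02 in A300 against Control, beside -0.03 over all genes, and 0.06 in ASC300 against ASC, beside -0.01 over all genes. With iAs 5 genes were higher and 5 lower in tumors of TC2Ras cells alone, and 9 were higher and 1 lower in tumors with ASC.

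**Figure D1:**
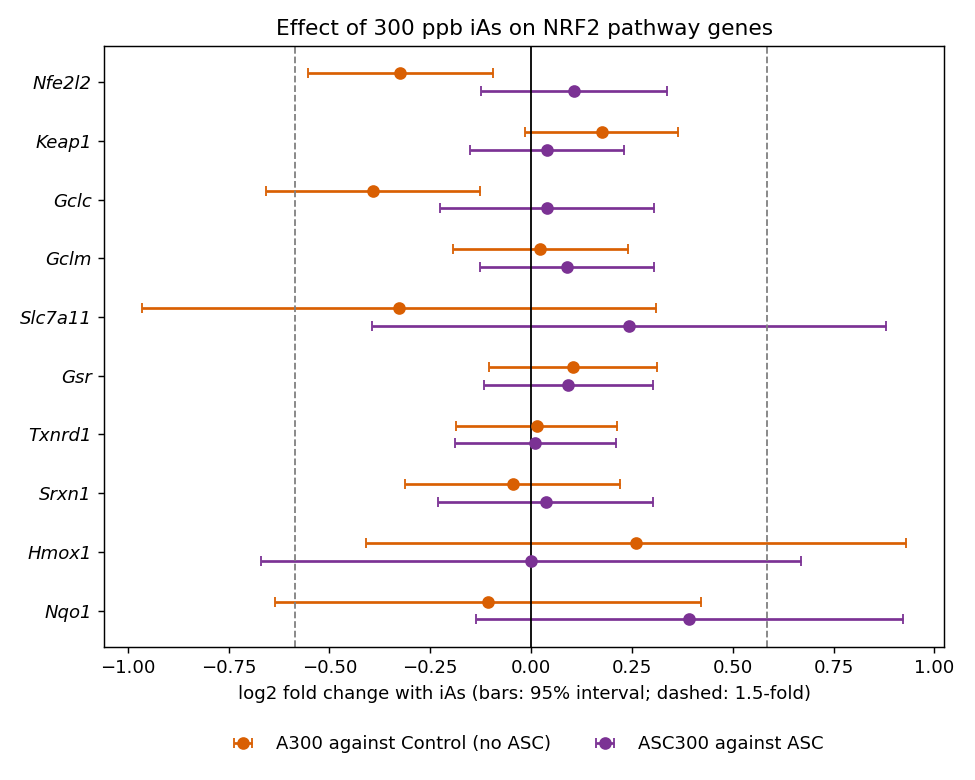
Log2 fold change with 300 ppb iAs (x axis) of each of the 10 genes (rows), without ASC (A300 against Control, orange) and with ASC (ASC300 against ASC, purple). Points are the fitted values, bars their 95% intervals and dashed lines a change of 1.5-fold. The intervals of Nfe2l2 and Gclc without ASC lie under 0, and the 18 others include it.

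The intervals give the sizes of iAs effect that the spread between tumors leaves possible in the main fit. They do not cover the choice of correction. With each tumor corrected for GC content, Gclm (0.27) and Keap1 (-0.06) without ASC lay outside their intervals. For Txnrd1, Gclm, Gsr, Srxn1, Keap1 and Nfe2l2 both intervals lay inside 1.5-fold in either direction. The widest bound was a log2 fold change of -0.55 (Nfe2l2, A300 against Control). For Gclc the interval without ASC reached -0.66, beyond 1.5-fold, and the interval with ASC lay inside it. For Hmox1, Slc7a11 and Nqo1 both intervals reached beyond 1.5-fold, so that a change of that size was not excluded here with 3 tumors a group. The p-values come from the fit over all genes, because the smallest that an exact permutation of 3 and 3 tumors allows is 0.1.

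The sensor pair differed in sign without ASC. Nfe2l2 (ENSMUSG00000015839, chr2:75675513-75704641 of GRCm38, minus strand) held 85.5, 99.8 and 99.3 CPM in Control tumors and 74.9, 67.9 and 84.5 CPM in A300 tumors. With ASC the levels were 91.7, 92.3 and 75.6 CPM without iAs and 98.0, 87.1 and 94.3 CPM with it. Each A300 tumor lay under each Control tumor, whereas ASC and ASC300 tumors overlapped. The log2 fold change was -0.32 ± 0.11 (SE, 95% interval -0.55 to -0.09) in A300 against Control, with an adjusted p-value of 0.0937 in edgeR and 0.0488 in DESeq2, under the 1.5-fold minimum in both. With ASC it was 0.11 ± 0.11 (-0.12 to 0.34), adjusted p-value 1.

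Keap1 (chr9:21229730-21239361, minus strand), whose protein restrains NRF2, had the opposite order without ASC. Control tumors held 74.5, 84.5 and 73.7 CPM and A300 tumors 84.1, 94.98 and 83.5 CPM, which overlap only at Control replicate 2. With ASC, Keap1 stood at 98.6, 87.0 and 101 CPM without iAs and 96.0, 95.5 and 104 CPM with it. The log2 fold change with iAs was 0.17 (95% interval -0.02 to 0.37, adjusted p-value 0.249) without ASC and 0.04 (-0.15 to 0.23) with ASC. After a correction of each tumor for GC content the value without ASC was -0.06, so the direction of Keap1 depends on that choice.

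In the supply of glutathione, the subunits of one enzyme had different values without ASC, a difference that was not tested. Gclc (chr9:77754535-77794485, plus strand), the catalytic subunit of glutamate-cysteine ligase, held 27.9, 35.1 and 31.9 CPM in Control tumors and 26.8, 20.6 and 25.0 CPM in A300 tumors. In tumors with ASC the values were 32.3, 26.3 and 29.6 CPM without iAs and 30.8, 30.3 and 29.7 CPM with it. All 3 A300 tumors were lower than every Control tumor, and ASC300 tumors lay within the range of ASC tumors. The log2 fold change was -0.39 ± 0.12 (SE, 95% interval -0.66 to -0.13) without ASC, with an adjusted p-value of 0.0825 in edgeR and 0.0350 in DESeq2, again under 1.5-fold, and 0.04 ± 0.12 (-0.22 to 0.31) with ASC.

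Gclm (chr3:122245557-122270732, plus strand), the modifier subunit, had 69.7, 60.9 and 63.0 CPM in Control tumors and 64.9, 69.4 and 62.4 CPM in A300 tumors. ASC tumors held 66.1, 65.4 and 75.7 CPM and ASC300 tumors 81.6, 64.4 and 74.2 CPM. Both pairs of groups overlapped, with log2 fold changes of 0.02 (-0.19 to 0.24) and 0.09 (-0.13 to 0.30), and the former was 0.27 after the correction for GC content (adjusted p-value 0.258). Groups that do not overlap were common in A300 against Control, where 29.9% of all genes tested had none of the A300 tumors within the Control range, and 2 of the 10 genes, Nfe2l2 and Gclc, were of that kind.

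Slc7a11 was the least abundant of the 10 genes per length and among the most variable. Control tumors held 11.02, 11.5 and 9.68 CPM and A300 tumors 9.91, 6.01 and 9.71 CPM. ASC tumors held 9.94, 10.5 and 4.41 CPM, the last being the lowest of all 12, and ASC300 tumors 11.3, 7.999 and 10.03 CPM. The log2 fold change was -0.33 (-0.96 to 0.31) without ASC and 0.24 (-0.39 to 0.88) with ASC, and the latter was -0.06 when ASC replicate 3 was left out. The value without ASC was -0.13 when A300 replicate 2 was left out, and -0.05 and -0.08 after the corrections for GC content and exon length.

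Gsr, which returns oxidized glutathione to its reduced form, varied little. It stood at 90.0, 92.2 and 105 CPM in Control tumors and 96.1, 113 and 100.4 CPM in A300 tumors. In ASC tumors it was 97.4, 95 and 117 CPM and in ASC300 tumors 109, 109 and 111 CPM. The groups overlapped in both comparisons, with log2 fold changes of 0.10 (-0.10 to 0.31) and 0.09 (-0.12 to 0.30), and the former was 0.0096 after the correction for exon length.

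Txnrd1, thioredoxin reductase of the cytosol, held 160.1, 196 and 190.2 CPM in Control tumors and 189.9, 188 and 173 CPM in A300 tumors. ASC tumors held 193, 172 and 208 CPM and ASC300 tumors 193, 198 and 187 CPM. Its highest level was 1.299 times its lowest over the 12 tumors, and the log2 fold change with iAs was 0.01 in both comparisons (-0.19 to 0.21 in each). Srxn1, sulfiredoxin, which repairs over-oxidized peroxiredoxins, had 113, 118 and 136 CPM in Control tumors and 108, 136 and 110.5 CPM in A300 tumors. It had 133, 105 and 140.3 CPM in ASC tumors and 133, 120.5 and 135 CPM in ASC300 tumors, so that both pairs of groups overlapped. The log2 fold changes were -0.05 (-0.31 to 0.22) and 0.04 (-0.23 to 0.30).

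Hmox1 (chr8:75093621-75100589, plus strand), heme oxygenase 1, is often used as the marker of arsenic stress and had the widest spread of the 10 genes. Control tumors held 100, 142 and 124 CPM, and A300 tumors 237, 111 and 90.1 CPM, so that the A300 group held both the highest and the lowest tumor of the series. ASC tumors held 128, 201 and 120.4 CPM and ASC300 tumors 177, 130.5 and 142 CPM. The log2 fold change without ASC was 0.26 (-0.41 to 0.93, adjusted p-value 0.677), it turned to -0.28 when A300 replicate 1 was left out, and it was 0.083 after the correction for exon length. With ASC it was -0.001 (-0.67 to 0.67), and 0.27 without ASC replicate 2.

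Marker RNA of erythroid cells and of macrophages varied between the same tumors. A300 replicate 1, with the most Hmox1, held 175 CPM over 8 erythroid markers against 75.3 and 80.2 CPM in the other A300 tumors, and ASC replicate 2 held 192 CPM against 73.5 and 79.3 CPM in the other ASC tumors. The most erythroid signal, 243 CPM, was in ASC300 replicate 2, where Hmox1 was the lowest of its group. Most of this signal was globin, with Alas2 at 1.44 to 3.43 CPM and with Epb42 at or under 12 counts in every tumor. The 12 macrophage markers summed to 1511 to 1946 CPM in Control, 1908 to 2047 in A300, 1829 to 2758 in ASC and 2056 to 2534 in ASC300 tumors. Of the macrophage markers edgeR called 0 in either iAs comparison, with 4 higher and 2 lower at an unadjusted p-value under 0.05 in A300 against Control, and DESeq2 called 1, Spic, lower in A300. C1qa (log2 fold change 0.47, edgeR adjusted p-value 0.0450), C1qb, C1qc and Cd68 were higher in every A300 tumor than in every Control tumor. Of the 12 markers 7 were higher and 5 lower, the latter being Marco (-1.92), Spic (-1.38), Cd163 (-0.94), Mrc1 (-0.47) and Itgam (-0.23). These groups did not overlap in 29.9% of all genes tested. C1qa, C1qb and C1qc have 57.35 to 59.52% GC, and values in this comparison moved with GC content, as given below. The part of either cell type in Hmox1 was not tested.

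Nqo1 (chr8:107388225-107403206, minus strand), the quinone reductase, was low in these tumors. Control tumors held 4.44, 4.09 and 7.16 CPM and A300 tumors 4.20, 5.64 and 4.71 CPM. ASC tumors held 5.04, 3.62 and 4.52 CPM and ASC300 tumors 5.06, 5.71 and 6.55 CPM. It was the only one of the 10 genes with every ASC300 tumor above every ASC tumor, 5.06 against 5.04 CPM at the closest, and 8.07% of all genes tested had groups that did not overlap in that comparison. The log2 fold change was 0.39 ± 0.24 (SE, -0.14 to 0.92, unadjusted p-value 0.133, adjusted p-value 1) with ASC and -0.11 (-0.64 to 0.42) without it, the latter turning to 0.21 without Control replicate 3.

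**Figure D2:**
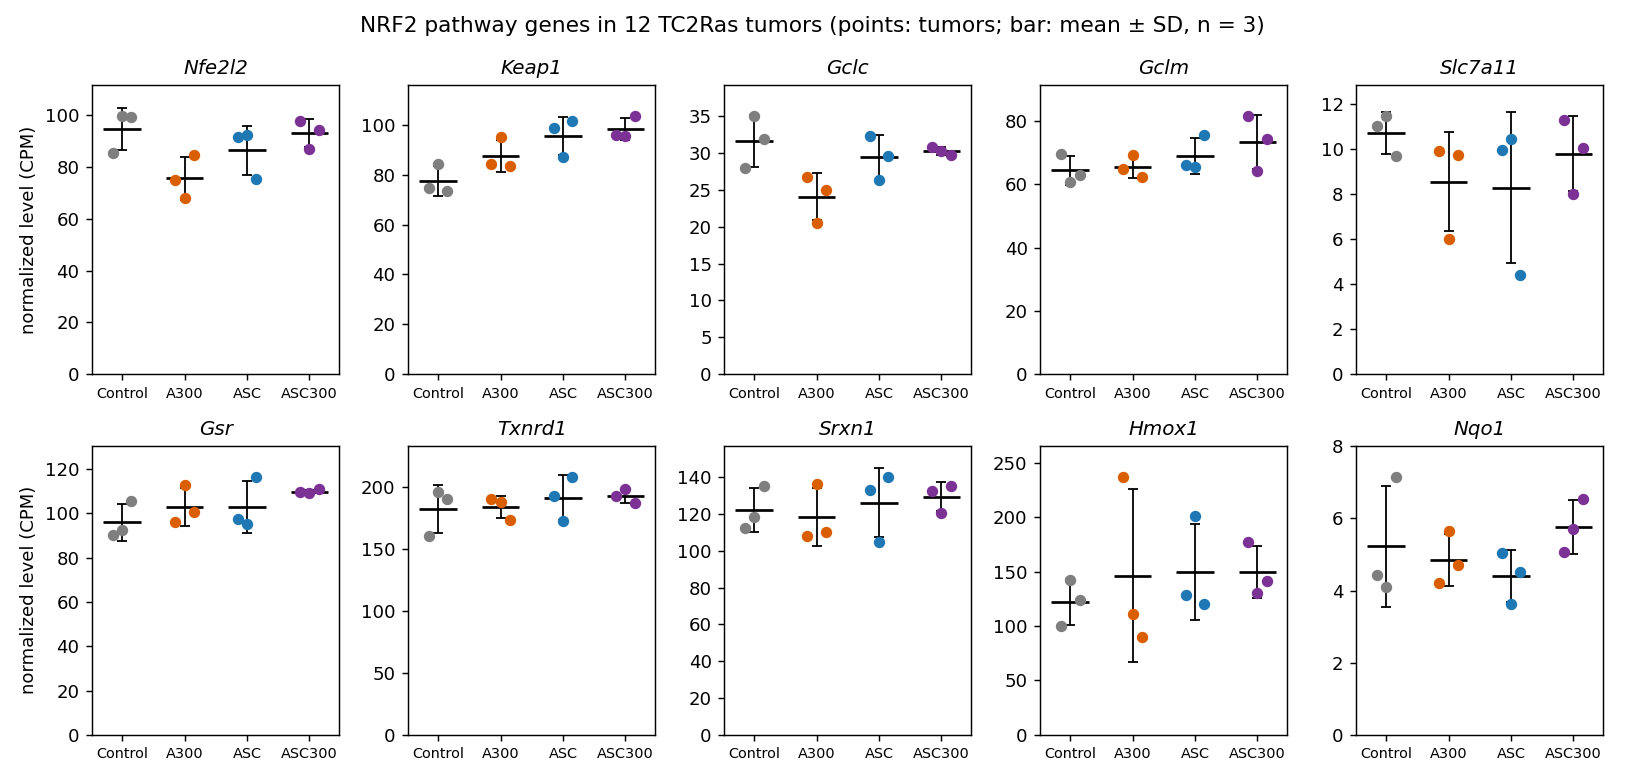
CPM (y axis, from 0) of each of the 10 genes in the 12 tumors, by group (x axis). Points are tumors and bars the mean ± SD of 3 tumors. In Nfe2l2 and Gclc the A300 points sit under all Control points, and in Hmox1 a single A300 tumor at 237 CPM sits far above the other 2.

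Per kilobase of annotated exon, so that genes can be compared with each other, Hmox1 was highest with a mean of 81.0 CPM per kb over the 12 tumors (51.5 to 136). Srxn1 (44.0 CPM per kb) and Gsr (37.4) followed, with overlapping ranges, and then Txnrd1 (26.4), Nfe2l2 (23.1) and Keap1 (19.1), each of which overlapped the next. Below them Gclm (10.8), Gclc (7.66), Nqo1 (3.26) and Slc7a11 (0.670) had ranges over the 12 tumors that did not overlap any neighbour. The modifier subunit of glutamate-cysteine ligase was thus measured at a higher level per length than the catalytic one in every tumor. The length used is that of all annotated exons of a gene, which exceeds that of any 1 transcript.

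Over the 12 tumors the highest level was 2.63 times the lowest for Hmox1, 2.60 times for Slc7a11, 1.98 times for Nqo1 and 1.71 times for Gclc. For the other 6 genes it was 1.295 to 1.47 times. The median SD of log2 CPM within groups was 0.143 over the 10 genes and 0.275 over all genes tested, which include many less abundant ones. Most of the pathway was therefore measured with less spread between tumors than a typical gene.

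The 10 genes did not move as one set across tumors. Over the 45 pairs the median Pearson r of log2 CPM was 0.14, 13 pairs were over 0.5 and 1 was under -0.5. Nfe2l2 and Gclc had the highest value, 0.77 (Spearman's rho 0.76), which was 0.47 about the group means and 0.51 without the 2 tumors farthest from the median of Nfe2l2. Srxn1 and Gsr had 0.75 (rho 0.78) and 0.83 about the group means. Gclc and Gclm, whose products form 1 enzyme, had -0.05. Slc7a11 and Gsr had the lowest value, -0.69 (rho -0.64). It was -0.86 about the group means and -0.48 without the 2 tumors farthest from the median of Slc7a11. These are descriptions over 12 tumors, whose values share the library, its depth and its composition.

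**Figure D3:**
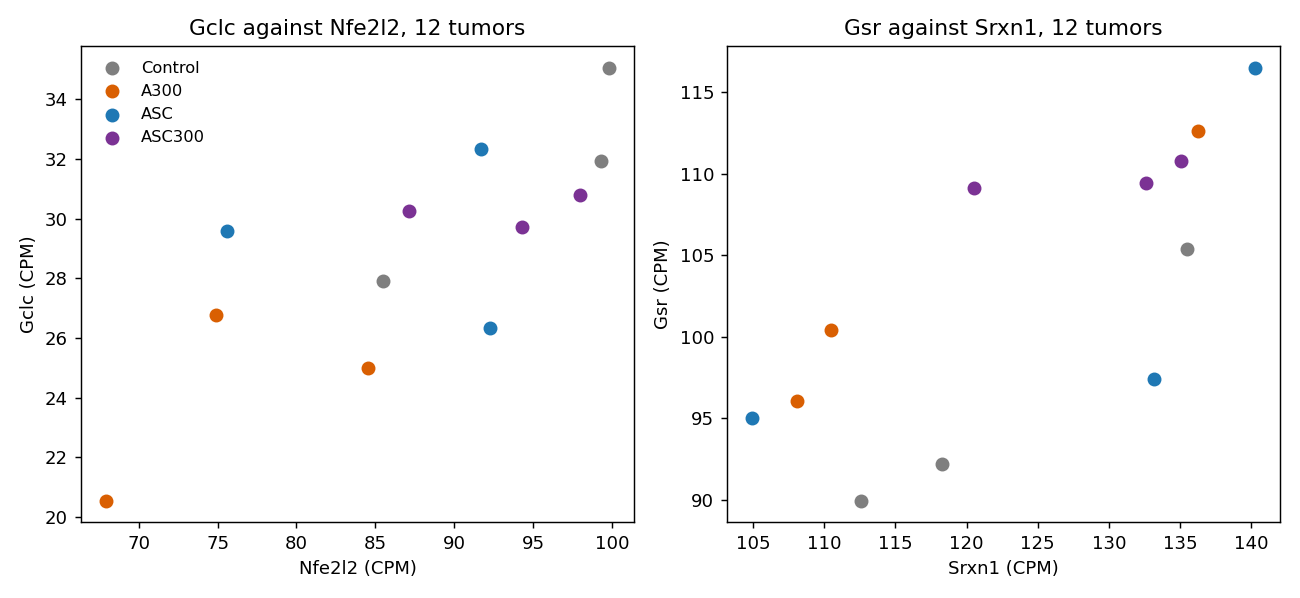
CPM of Gclc against Nfe2l2 (left) and of Gsr against Srxn1 (right), 1 point a tumor, colored by group, with axes that do not start at 0. The A300 tumors lie toward the lower left of the left panel, with A300 replicate 2 lowest in both genes, and in the right panel no group stands apart.

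The difference between the iAs effect with and without ASC was tested as the interaction. None of the 10 genes was called, with a background of 0% of all genes, and DESeq2 called 0 of the 10. An unadjusted p-value under 0.05 was held by 2 of the 10, beside 13.6% of all genes (1473 higher and 1363 lower). The difference was 0.43 (95% interval 0.10 to 0.76, adjusted p-value 0.312) for Nfe2l2 and 0.43 (0.06 to 0.81, adjusted p-value 0.328) for Gclc, positive because both genes were lower with iAs in tumors of TC2Ras cells alone and close to 0 in tumors with ASC. The lowest value over all settings was 0.31 for Nfe2l2, after the correction for GC content, and 0.32 for Gclc, without Control replicate 2. For the other 8 genes the intervals included 0, and the widest, of Hmox1, ran from -1.21 to 0.69.

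Averaged over both ASC levels, the iAs effect called none of the 10 genes in edgeR or DESeq2, with a background of 0%, and 0 had an unadjusted p-value under 0.05, where 1564 of all genes were higher and 1761 lower. The values ran from -0.18 (Gclc, -0.36 to 0.01) to 0.14 (Nqo1, -0.23 to 0.52), with a median of 0.03 beside -0.02 over all genes. All 10 intervals lay between -0.49 and 0.60, the latter for Hmox1 (-0.34 to 0.60).

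For ASC averaged over both iAs levels the background was 1.45% of genes called (301 of 20818), and 0 of the 10 genes were called by edgeR or DESeq2, with 1 at an unadjusted p-value under 0.05, beside 10.9% of all genes. That gene was Keap1, with a log2 fold change of 0.24 (95% interval 0.10 to 0.37) and an adjusted p-value of 0.0953, which was 0.0372 in DESeq2, far under 1.5-fold in both. Its levels were 73.7 to 94.98 CPM in the 6 tumors without ASC and 87.0 to 104 CPM in the 6 with ASC, which overlap. With ASC 8 of the 10 genes were higher, with a median of 0.09 beside -0.004 over all genes.

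The wider pathway was read from 7 lists of other antioxidant and stress genes. In A300 against Control, 1 of their 91 tested genes was called by edgeR, and 3 by DESeq2 (Gstp1, Mgst3 and Tfrc, of which Mgst3 is named because its call was seen). In ASC300 against ASC both tools called 0 of the 91. Gstp1, the pi-class glutathione transferase, rose from 197, 193 and 203 CPM in Control to 292, 339 and 304 CPM in A300 tumors, a log2 fold change of 0.66 ± 0.15 (SE, adjusted p-value 0.0453). With ASC it held 201, 249.6 and 346 CPM without iAs and 246, 249 and 286 CPM with it. The call was lost when any 1 tumor other than ASC replicates 1 and 3 was left out (adjusted p-value up to 0.190 without A300 replicate 2), without the filter on low counts, and after the corrections for GC content (log2 fold change 0.48) and exon length (0.44). Near-identical copies of Gstp1 exist in the mouse genome, and how reads were shared between them is not given in the sources used here.

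Of the 14 regulators and partners of NRF2, 0 were called with iAs by either tool, and 2 higher and 4 lower had an unadjusted p-value under 0.05 without ASC. That share, and those of the lists that follow, stand beside the 24.1% of all genes tested in A300 against Control. Cul3, the scaffold of the ligase that degrades NRF2, held 132, 129.6 and 144 CPM in Control and 103, 88.1 and 112 CPM in A300 tumors, a log2 fold change of -0.42 (adjusted p-value 0.0641). Its partner Rbx1 had the opposite sign, 0.38 (adjusted p-value 0.105). After the correction for GC content Cul3 was -0.06 (adjusted p-value 0.680) and Rbx1 0.62 (adjusted p-value 0.116). In tumors with ASC 0 of the 14 had an unadjusted p-value under 0.05.

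Among 20 tested genes of glutathione synthesis and use, 14 were higher and 6 lower in A300 against Control, with Gstp1 as the only call by edgeR, 6 higher and 0 lower at an unadjusted p-value under 0.05, and a median of 0.12. Among 16 thioredoxin and peroxiredoxin genes 0 were called by either tool, while 10 were higher and 6 lower, also with a median of 0.12, and 5 higher and 1 lower had an unadjusted p-value under 0.05. The peroxiredoxins Prdx2 (0.40, adjusted p-value 0.0595) and Prdx5 (0.36, adjusted p-value 0.0640) had the smallest p-values, and Prdx5 was 0.17 after the correction for GC content (adjusted p-value 0.309). In ASC300 against ASC, 9 of the 20 and 5 of the 16 were higher with 0 called by either tool, and Mgst2, a microsomal glutathione transferase, had 0.39 (adjusted p-value 1).

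NADPH feeds both arms. Of its 6 supply genes 0 were called by either tool, with 1 higher and 2 lower at an unadjusted p-value under 0.05, Me1, malic enzyme, having -0.25 (adjusted p-value 0.0661) and Taldo1, a pentose phosphate enzyme, 0.30 (adjusted p-value 0.139) in A300 against Control. Me1 was -0.09 after the correction for GC content and Taldo1 0.15 after that for exon length. G6pdx, the first enzyme of the pentose phosphate pathway, held 152, 130.5 and 156 CPM in ASC and 171, 167 and 175 CPM in ASC300 tumors, each of the latter above each of the former, with a log2 fold change of 0.23 and an adjusted p-value of 1.

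In the heme and iron list 0 of 10 genes were called by edgeR, with 4 higher and 3 lower at an unadjusted p-value under 0.05. Ftl1 and Tfrc each missed 1 criterion. Ftl1, ferritin light chain, held 1079, 1166 and 1087 CPM in Control and 1706, 1619 and 1389 CPM in A300 tumors, a log2 fold change of 0.50 with an adjusted p-value of 0.0447 but under 1.5-fold. Tfrc, the transferrin receptor, held 149.5, 136 and 147 CPM in Control and 68.9, 80.6 and 116 CPM in A300 tumors, a log2 fold change of -0.70 with an adjusted p-value of 0.0585. The groups did not overlap in either gene. After the correction for GC content the values were 0.27 and -0.39, with adjusted p-values of 0.241 and 0.254.

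Of 15 quinone, carbonyl and conjugation enzymes 0 were called by either tool and 0 had an unadjusted p-value under 0.05 in A300 or ASC300 against their no-iAs groups. Of 10 genes of the ATF4 stress response, which shares Slc7a11 with NRF2, 0 were called by either tool and 1 was higher at an unadjusted p-value under 0.05, and that gene, Phgdh of serine synthesis, had a log2 fold change of 0.30 (adjusted p-value 0.159) in A300 against Control, and of 0.084 after the correction for GC content.

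**Figure D4:**
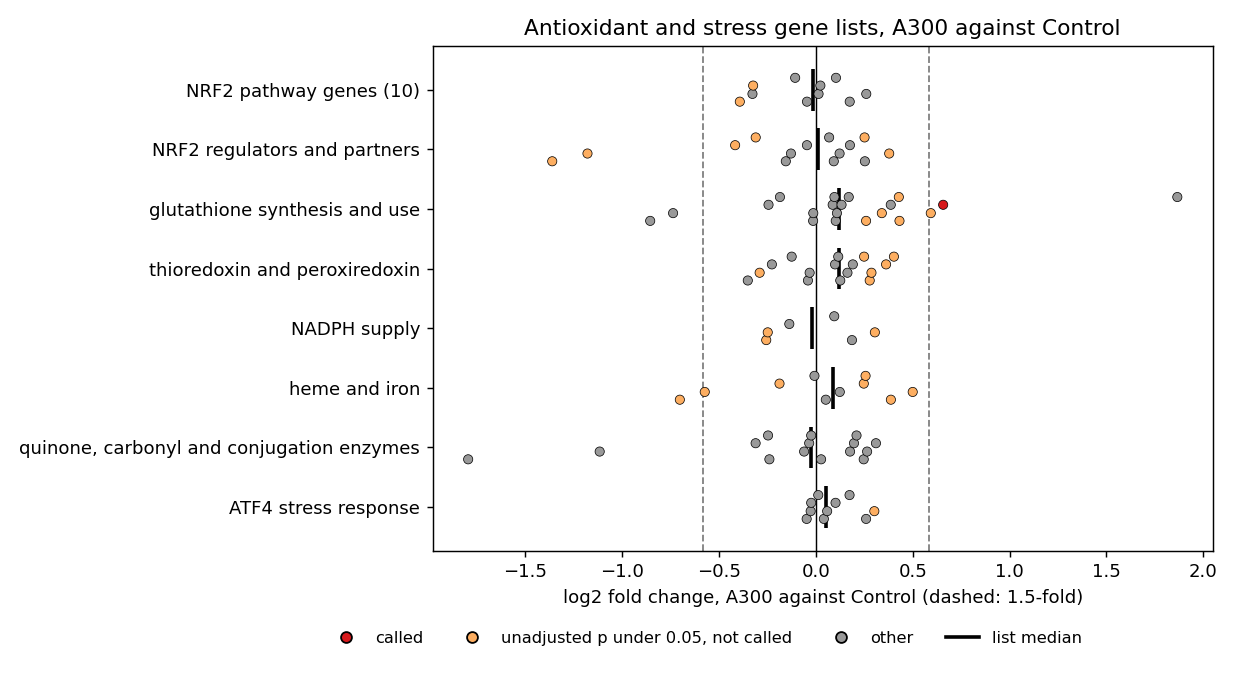
Log2 fold change in A300 against Control (x axis) of the 10 genes and of the genes of 7 other antioxidant and stress lists (rows). Red marks a called gene (Gstp1 alone), orange an unadjusted p-value under 0.05 without a call, black bars the median of a list and dashed lines a change of 1.5-fold.

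Gene length and GC content moved with the values in A300 against Control. Across the 13154 genes with a mean log2 CPM over 1, which are not independent replicates, the log2 fold change had a Pearson r of 0.49 with GC content and of -0.36 with exon length, against 0.04 and 0.06 in ASC300 against ASC. In the interaction the values of r were -0.42 with GC content and 0.36 with exon length. Genes called higher had a median exon length of 1718 bp and 56.6% GC and genes called lower 5828 bp and 41.3%, beside 3445 bp and 49.1% over all genes tested. Nfe2l2 (46.8% GC) and Gclc (47.7%) lie under that last value and Keap1 (58.0%) above it, as do Gstp1 (55.8%) and Ftl1 (58.1%), while Tfrc (39.8%) and Cul3 (38.5%) lie far under it. Gclm (42.1%) and Rbx1 (42.5%) also lie under that value but had log2 fold changes above 0 (0.02 and 0.38). Srxn1 (53.3%) lies above that value and had -0.05. With each tumor corrected for GC content, 0 genes were called in A300 against Control by edgeR, and the log2 fold change was -0.21 for Nfe2l2 (adjusted p-value 0.295) and -0.30 for Gclc (adjusted p-value 0.219). The part of GC content and length in these values was not tested further.

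**Figure D5:**
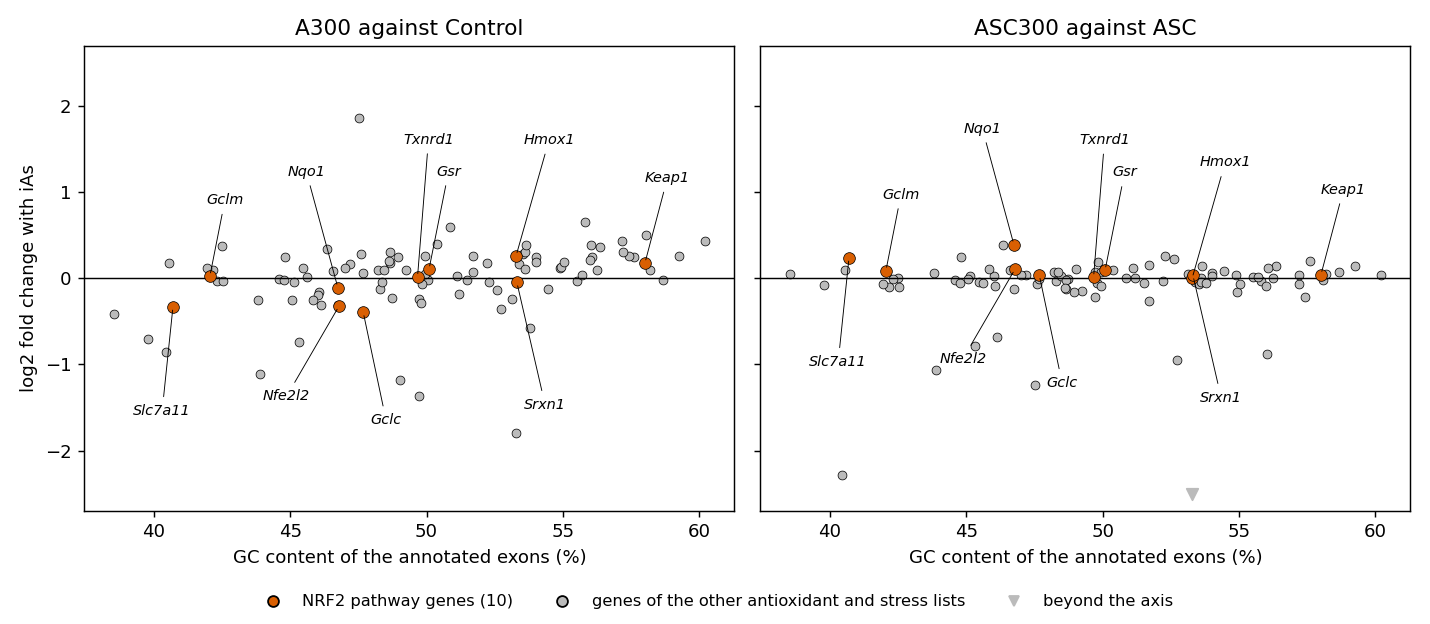
Log2 fold change with iAs (y axis) against GC content (x axis, %, that of the longest annotated transcript) for the 10 genes (orange, named) and the genes of the other antioxidant and stress lists (grey), without ASC (left) and with ASC (right). Grey points of high GC content lie mostly above 0 on the left, and the triangle stands for Aldh3a1, whose value of -5.89 lies beyond the axis.

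Marker lists of other cell types moved with iAs in their own ways. Summed neuronal and synaptic markers held 33.7 to 56.0 CPM in Control and 71.2 to 116 CPM in A300 tumors, with 4 of 12 called higher in A300 against Control by edgeR and 9 by DESeq2, and 46.4 to 64.8 CPM in the tumors with ASC. Adipocyte markers held 221 to 455 CPM in Control, 106 to 147 in A300, 93.9 to 893 in ASC and 85.9 to 130 CPM in ASC300 tumors, and 0 of 8 were called in either iAs comparison by edgeR or DESeq2, though all 8 were lower in both. In tumors with ASC the sums were 93.9, 893 and 123 CPM without iAs and 85.9, 130 and 122 CPM with it, so that ASC replicate 2 alone stood high, and DESeq2 called 3 of the 8 lower for iAs over both ASC levels (Plin1, Cidec and Cfd). In A300 against Control 8 of 8 T cell markers and 7 of 8 B cell and plasma cell markers were lower. EdgeR called 0 of them, and DESeq2 called Cd8a and Lck lower. T cell markers summed to 15.2 to 19.8 CPM in A300 and 16.3 to 92.0 CPM in Control tumors, the last in Control replicate 1. The A300 tumors, the group with the lowest mean of Nfe2l2 and of Gclc, also held more neuronal and less adipocyte marker RNA than Control tumors. The part of these marker differences in Nfe2l2 and Gclc was not tested.

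The genes whose log2 CPM followed Hmox1 most closely over the 12 tumors were AI463170 (r = 0.90), Slc10a1 (0.89) and Gm48734 (0.85), all with a mean log2 CPM of -1.5 or less. For Nqo1 they were Rftn2 (0.85), Anapc10 (0.85) and Gm18541 (0.84). None of the other 9 genes was among the 3 closest to either.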

How the data were processed

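RNA-seq counts per gene from 12 tumors were used as the authors deposited them. Per the labels and the study's methods, poly(A) RNA was sequenced as stranded paired reads, and the submitters' processing notes name cutadapt 1.1.0, HISAT2 2.0, StringTie 1.3.4, DESeq2 and edgeR. The step from StringTie to counts, the genome build and the annotation are not given in the sources used here. Low counts piled up at multiples of 4 (618 to 795 genes a tumor at a count of 3, 1137 to 1298 at 4), so 1 read may be worth more than 1 count, and counts were analysed as deposited with a division by 4 as an alternative. Symbols were matched by Ensembl ID to GENCODE M21 (GRCm38), and 260 of 55401 rows had none.

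The main test was edgeR 4.0.16's quasi-likelihood F test (R 4.3.3) on 4 group means over all 12 tumors, with TMM normalization and filterByExpr, and Benjamini-Hochberg adjustment over 20818 genes. Intervals are 95% Wald intervals. A call needed an adjusted p-value under 0.05 and at least 1.5-fold. DESeq2 1.42.0, other filters and scalings, a replicate block and leaving out each tumor were alternatives. Scripts were tested on simulated data. Each library is 1 mouse. GC content is that of the longest annotated transcript of a gene, and length that of all its annotated exons.

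The 10 genes and all lists were chosen with earlier results of these data known. From the other lists, up to 4 called genes per comparison are named, or, where none was called, up to 2 with an unadjusted p-value under 0.05, by smallest p. For ASC over both iAs levels only those with an edgeR adjusted p-value under 0.05 are named. For Hmox1 and Nqo1 the 3 most correlated genes are named. Depth sets the precision of low genes such as Nqo1 (135 to 331 counts) and Slc7a11 (189 to 607 counts). A marker gene and a detail of the donor mice are not reported here.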

Additional observations from a re-analysis of the deposited data

Results flagged for a closer look

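Nfe2l2 and Gclc stood out because the iAs effect differed with and without ASC at an unadjusted p-value under 0.05. The iAs effect with ASC minus that without was 0.43 on the log2 scale for Nfe2l2 (95% interval 0.10 to 0.76, edgeR adjusted p-value 0.312) and 0.43 for Gclc (0.06 to 0.81, edgeR adjusted p-value 0.328). Neither passed the correction over all genes. Both genes were lower in 3 of 3 A300 tumors than in every Control tumor, and in tumors with ASC the groups overlapped. A300 and Control groups did not overlap in 29.9% of all genes tested. For the same difference between iAs effects, 13.6% of all genes tested had an unadjusted p-value under 0.05 (1473 higher and 1363 lower), beside 2 of the 10.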

How the results depend on the processing

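Of 1020 values of the 10 genes over all comparisons and settings, 945 kept their direction and their side of the threshold, 75 turned sign and 0 were called. For counts of genes called, DESeq2 gave 816 in A300 against Control, 11 in ASC300 against ASC, 114 for iAs over both ASC levels, 174 for the interaction and 478 for ASC over both iAs levels. With unadjusted p-values the counts were 1514, 428, 685, 1211 and 956. In A300 against Control there were 8 without a filter, 454 with at least 10 counts in every tumor, 593 without a minimum of the fold change and 460 with counts divided by 4. With only the 6 tumors compared, ASC300 against ASC gave 1. The corrections for GC content and exon length, chosen after seeing the data, gave 0 and 66 in A300 against Control. Leaving out 1 tumor gave 0 to 399 in A300 against Control (0 without any Control tumor, 394 without ASC replicate 1, 28 without ASC replicate 2, 399 without ASC replicate 3, 122, 1 and 2 without A300 replicates 1, 2 and 3, and 0, 7 and 0 without ASC300 replicates 1, 2 and 3), 0 to 1 in ASC300 against ASC and in the interaction, and 0 to 59 for iAs over both ASC levels (59 without ASC replicate 3). The causes were not tested.

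Under DESeq2 Srxn1 for iAs over both ASC levels was 0.0024, and it was 0.0088 with at least 10 counts and 0.0097 with counts divided by 4. Txnrd1 in ASC300 against ASC was -0.0011 with DESeq2 size factors, -0.00028 with counts divided by 4, -0.0027 after the GC correction and -0.0195 after the length correction. After the GC correction Keap1 was -0.061 in A300 against Control, -0.0080 in ASC300 against ASC, -0.034 for iAs over both ASC levels and 0.053 in the interaction, Nqo1 was 0.0077 in A300 against Control and 0.00082 for ASC over both iAs levels, Slc7a11 was 0.099 for iAs over both ASC levels and Gclm -0.20 in the interaction. After the length correction Slc7a11 was 0.089 for iAs over both ASC levels, and Gclm was -0.083 and Gsr 0.058 in the interaction.

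With 1 tumor left out, the median of the 10 genes ran from -0.074 (without A300 replicate 2) to 0.066 (without Control replicate 3) in A300 against Control and from 0.0022 to 0.17 in the interaction. In A300 against Control Hmox1 ran from -0.28 (without A300 replicate 1) to 0.54, Nqo1 from -0.24 to 0.21 (without Control replicate 3), Gclm from -0.0197 to 0.0999, Txnrd1 from -0.052 to 0.092 and Srxn1 from -0.16 to 0.0602. In ASC300 against ASC Keap1 ran from -0.022 to 0.087, Hmox1 from -0.14 to 0.27 (without ASC replicate 2), Gclc from -0.032 to 0.10, Txnrd1 from -0.058 to 0.079, Srxn1 from -0.079 to 0.12 and Slc7a11 from -0.058 (without ASC replicate 3) to 0.45, and the lowest values of Keap1, Gclc, Txnrd1 and Srxn1 were those without ASC replicate 2. For iAs over both ASC levels Hmox1 ran from -0.14 to 0.27, Txnrd1 from -0.023 to 0.049, Srxn1 from -0.063 to 0.046 and Slc7a11 from -0.19 to 0.059. In the interaction Hmox1 ran from -0.55 to 0.28 (without A300 replicate 1), Gclm from -0.044 to 0.14, Txnrd1 from -0.087 to 0.065, Srxn1 from -0.033 to 0.198 and Gsr from -0.11 to 0.089. For ASC over both iAs levels Nqo1 ran from -0.076 to 0.15 and Slc7a11 from -0.19 to 0.061 (without ASC replicate 3). The other genes kept their sign.

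Tumors with the same replicate number did not deviate together. Over 18 such pairs the correlation of deviations ran from -0.12 to 0.17, and 3 of 12 tumors correlated best with their own number, so the numbers were not taken to pair tumors. With a replicate block the counts called were 195 in A300 against Control, 285 for ASC over both iAs levels and 0 elsewhere, Hmox1 in ASC300 against ASC was 0.0015 and Nqo1 for ASC over both iAs levels 0.0078, both turned in sign, and 0 of the 10 genes were called.

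Low counts limit Nqo1 and Slc7a11, and 3 tumors a group limit every value.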

Other observations

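Averaged over both iAs levels, 3 genes of the thioredoxin and glutathione lists had an edgeR adjusted p-value under 0.05 with ASC, all under 1.5-fold and so not called. Glrx, glutaredoxin, held 22.1 to 30.6 CPM in the 6 tumors without ASC and 31.5 to 38.2 CPM in the 6 with ASC, a log2 fold change of 0.51 (edgeR adjusted p-value 0.00441, higher in 6 of 6 tumors than in any without). Txnip, the inhibitor of thioredoxin, held 239 to 294 CPM without ASC and 306 to 364 CPM with it, a log2 fold change of 0.38 (edgeR adjusted p-value 0.00505). Prdx5, a peroxiredoxin, had 0.37 (edgeR adjusted p-value 0.0148), and its groups overlapped. Of all genes tested, 1.89% had no overlap between tumors with and without ASC.

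Other list genes differed in their iAs effect with and without ASC at an unadjusted p-value under 0.05, as did 13.6% of all genes tested. None passed the correction over all genes in edgeR. Gstp1 had a difference of -0.69, Ftl1 of -0.52 and Gpx1, a glutathione peroxidase, of -0.49, each with an edgeR adjusted p-value of 0.309 to 0.320. Prdx6 had -0.41 (edgeR adjusted p-value 0.320), Txn2 -0.35 (0.347) and Me1 0.24 (0.340). Tfrc had 0.63 (edgeR adjusted p-value 0.340), Cul3 0.47 (0.312) and G6pdx 0.37 (0.309). For iAs over both ASC levels, 16.0% of all genes had an unadjusted p-value under 0.05. Named list genes were higher for Mgst2 (0.36), Blvrb (0.27), Prdx5 and Prdx2 (0.25 each), Ftl1 (0.24), Maff (0.23) and Gsto1 (0.21). Lower were Bach1 (-0.22), Me1 (-0.13), Ugt1a6a (-1.09) and Aldh3a1 (-3.845, 0 to 26 counts). EdgeR adjusted p-values were 0.1815 to 0.287. DESeq2's were under 0.05 for Mgst2, Prdx5, Prdx2, Blvrb and Ftl1, all under 1.5-fold.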
